A study of Mus musculus with 10 samples.

Results

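The Tceal and Bex genes encode small, acidic, largely unstructured proteins that act as adaptors in transcription and in growth factor signalling. The 8 members described here are Tceal1, Tceal3, Tceal5, Tceal6, Tceal8, Bex1, Bex2 and Bex4. They were taken as every probe that carries one of these symbols on the platform, which gave 14 of 25697 probes. The family was chosen by the intensity and detection p of Tceal5 on the arrays of induced cells, where it was already known from these data to be low. Comparisons with induced cells are therefore given as descriptions, with no test.

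The arrays compared mouse motor neurons of 3 origins, each carrying an Hb9::GFP transgene in which the promoter of Hb9 (Mnx1), a motor neuron homeobox gene, drives green fluorescent protein. Embryonic cells came from spinal cord at E13.5 on a C57BL/6 background. ES-derived cells were differentiated from the Hb9::GFP-transgenic embryonic stem cell line V6.5, and induced cells were made from embryonic fibroblasts of C57BL/6 background with 10 transcription factors, whose names are not in the labels. Cells were sorted by GFP-high and GFP-medium fluorescence. There were 2 arrays per gate for embryonic and for ES-derived cells and 1 array per gate for induced cells, 10 arrays in all. V6.5 is 1 line, and nothing in the labels says whether replicates were separate animals or cultures or how many were pooled, so p-values cover only the spread among these arrays, and that spread may be technical.

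The Tceal genes are named for their likeness to transcription elongation factor A (TFIIS), which helps stalled RNA polymerase II to resume. The Bex genes (brain expressed, X-linked) are best known for linking the p75 neurotrophin receptor to cell cycle and survival signalling in neurons. In placental mammals most genes of both groups lie together on the X chromosome, beside the related Armcx and Gprasp genes, and many are strongly expressed in the nervous system.

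In the RefSeq annotation of the mouse build GRCm38.p6, all 8 members lie on the X chromosome. The 11 X-linked Tceal and Bex genes span chrX:135208686-136709873, a distance of 1501 kb, and 10 of them without Tceal6 span 643 kb. Tceal5 lies at chrX:136200948-136203884 on the minus strand. Its 250 bases before the annotated start, chrX:136203885-136204134, are shown first because Tceal5 is the member by which the family was chosen. The capitals mark a TGACG and a CACGTG separated by 7 bases.

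Tceal5 upstream: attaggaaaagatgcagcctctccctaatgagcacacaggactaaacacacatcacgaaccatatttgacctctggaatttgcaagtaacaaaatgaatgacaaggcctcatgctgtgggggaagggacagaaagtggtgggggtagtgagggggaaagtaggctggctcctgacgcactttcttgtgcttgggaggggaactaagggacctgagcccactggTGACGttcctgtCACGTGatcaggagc

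The same pair of short motifs, which was noticed on reading these windows and not chosen beforehand, was searched on both strands in the RefSeq windows of 250 bases before to 50 after each start. The letters TGACGNNNNNNNCACGTG occurred in 17 of 27025 genes, 0.0629%, and in 6 of the 8 members. The CACGTG that it contains occurred alone or in the pair in 8.09% of genes and in 7 of 8 members. With a spacer of 9 bases in place of 7, TGACGNNNNNNNNNCACGTG occurred in 6 genes (0.0222%), among them Tceal1. The sites are set side by side to show how far the members share them, with TGACG and CACGTG in capitals.

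Tceal1 (chrX:136707955-136707992, plus strand): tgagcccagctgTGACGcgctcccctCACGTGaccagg
Tceal3 (chrX:136666354-136666389, plus strand): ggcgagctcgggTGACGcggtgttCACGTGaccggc
Tceal5 (chrX:136203888-136203923, minus strand): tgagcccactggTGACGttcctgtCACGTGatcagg
Tceal6 (chrX:135210690-135210725, minus strand): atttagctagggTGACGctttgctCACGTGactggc
Tceal8 (chrX:136172223-136172258, minus strand): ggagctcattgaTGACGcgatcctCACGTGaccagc
Bex1 (chrX:136215505-136215540, minus strand): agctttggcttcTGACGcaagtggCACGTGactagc
Bex4 (chrX:136138963-136138998, plus strand): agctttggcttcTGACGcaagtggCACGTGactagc

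Bex2 held neither form in its window. The relatives Armcx1 and Armcx6 held the form with 7 bases, and Bex3 and Armcx4 the form with 9. The 36 bases shown for Bex1 and Bex4 were identical, and over the whole window these genes matched at 97.7% of 298 aligned bases. Bex2 matched its relative Bex3 at 99% of 199 aligned bases. A match is a description of the letters, not a site bound by a factor.

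Levels are normalized intensities on the log2 scale, and a probe counted as detected where its deposited detection p was under 0.01. Probes detected on at least 2 arrays were kept, and the brightest kept probe stood for a gene. This left 9679 features and 7 of the 8 members, with 12 of their 14 probes. Mean deposited intensity ran from 3.16 to 577 per array, and probes detected from 2095 to 11441. ES-derived GFP-high replicate 1 stood apart: it had the mean of 3.16, the fewest detected probes and a median correlation of 0.587 with the other arrays, against 0.795 to 0.888 for the rest. With embryonic GFP-medium replicate 1 (51.3) and ES-derived GFP-medium replicate 1 (81.6) it made the 3 arrays of mean intensity under 100, and results that rest on them are also given without them. Wherever an array was left out, this was done after normalization, the probe filter and the choice of brightest probe, which used all arrays. The number of arrays limits the precision of every value. In sorted populations measured in bulk, fewer cells with a transcript and less of it per cell cannot be told apart.

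Motor neuron markers were measured for 9 of 10 listed genes. Mnx1 itself was detected on the induced arrays alone, and Isl2, Lhx3, Slc5a7 and Prph were not detected on the induced arrays. Prph was also not detected on ES-derived arrays. Detected on any array were 8 of the 9 in embryonic, 7 in ES-derived and 5 in induced cells. The 9 genes summed to 916 to 3540 on embryonic, 247 to 4510 on ES-derived and 1790 to 2150 on induced arrays. Pan-neuronal markers (15 of 17 measured) summed to 12200 to 21000, 2140 to 20000 and 13200 to 14900. Tubb3 was detected only on embryonic arrays, and Ncam1 not on ES-derived ones. Markers of other cells differed between origins. Summed muscle marker intensity (10 of 12 genes measured) was 8250 to 12600 on embryonic, 339 to 1600 on ES-derived and 1450 to 7450 on induced arrays, with Actc1, Tnnc2, Tnnt3 and Myog detected on none of the ES-derived or induced arrays. Mesenchymal markers (10 of 12 measured) summed to 3620 to 7460, 360 to 1210 and 229 to 309, with Lum undetected outside embryonic cells. Pluripotency markers (8 of 10 measured) summed to 237 to 327, 1150 to 26400 and 237 to 238, and Pou5f1 and Nanog were not detected on induced arrays. Blood, endothelial and microglial markers (9 of 10 measured) summed to 1110 to 2230, 201 to 683 and 467 to 512, with the globins Hbb-y and Hba-a1 undetected outside embryonic cells. Lyz2 of this list went the other way in induced cells, at 2.95 above embryonic cells, while 8 genes lay below 0. Lyz2 was detected in embryonic and induced cells and on no ES-derived array. Glial markers (5 of 9 measured) summed to 1030 to 1230, 355 to 2780 and 442 to 500, and cell cycle genes (8 of 10 measured) to 2140 to 5060, 1780 to 8420 and 629 to 758, with Top2a, Ccna2 and Birc5 not detected on induced arrays. The part of these cells in the members' values was not tested.

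Tceal5 had 1 probe. Its levels on the embryonic arrays were 10.89 and 10.21 in the GFP-high gate and 9.71 and 10.83 in the GFP-medium gate. On the ES-derived arrays they were 10.53 and 10.02 in the GFP-high gate and 9.91 and 9.08 in the GFP-medium gate. On the induced arrays they were 4.36 and 4.27, and the probe was not detected on either. The deposited intensities there were -0.6 and -4.3, against 23.4 on the dimmest ES-derived array and up to 5790 on the embryonic arrays. Embryonic and ES-derived arrays overlapped, and both induced arrays lay below all 8 of them. Because Tceal5 was not detected on any induced array, its level there is only a bound: it was at least 37.2-fold higher in embryonic and at least 25.8-fold higher in ES-derived cells. These bounds set the brighter group's mean against the mean of the lowest signal among detected probes on each induced array.

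**Figure D1:**
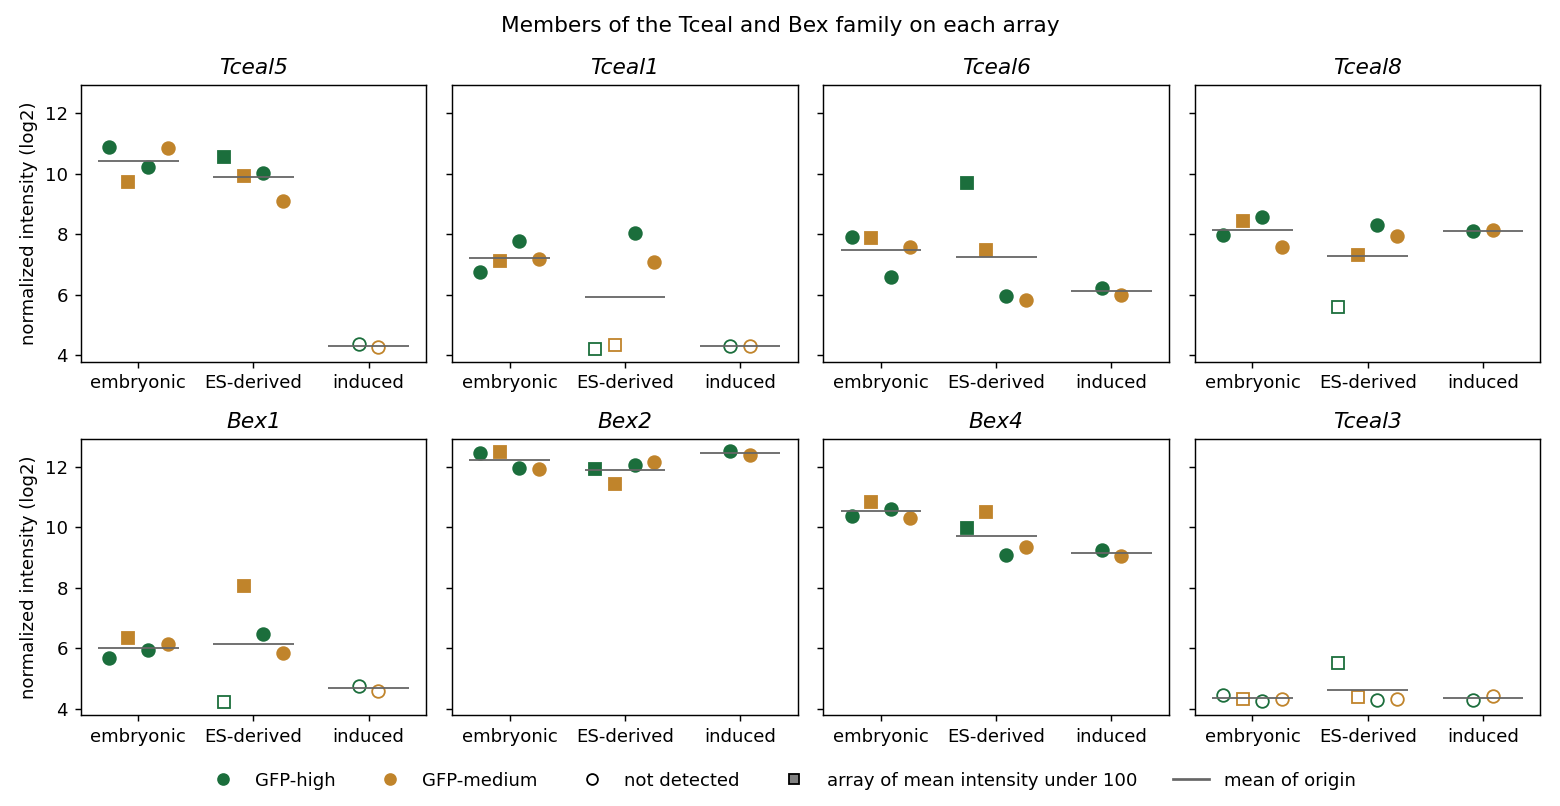
Normalized intensity (log2, vertical axis) of each member on each of the 10 arrays, by origin. Filled points were detected and open points were not, squares are the 3 arrays of mean intensity under 100, and lines are means of the arrays of an origin. Tceal5 was detected on all 8 embryonic and ES-derived arrays and on neither induced array. Bex2, shown by its brightest probe, stayed between 11.44 and 12.51 throughout.

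Detection on all 8 embryonic and ES-derived arrays and on no induced array was seen in 8 of 9679 features, 0.0827%. Tceal5 was the 1 member among them. The others, named here after their values were seen, were B3gnt5, Gja1, Glra2, Irx5, Kif18b, Nap1l5 and Tcf7l1. A looser pattern, detection on all 4 embryonic arrays and on no induced array, held for 3.18% of features and for 3 members, Tceal1, Tceal5 and Bex1. Detection on every array held for 14.9% of features and for Tceal6, Bex2 and Bex4. The member was chosen for this pattern, so nothing is read from these shares.

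Tceal1, described in human cells as a nuclear protein that modulates transcription, was also not detected in induced cells. Its embryonic levels were 6.76 and 7.77 in the GFP-high gate and 7.11 and 7.19 in the GFP-medium gate. Its ES-derived levels were 4.20 and 8.05 in the GFP-high gate and 4.34 and 7.09 in the GFP-medium gate. On the induced arrays it stood at 4.29 and 4.31. It was detected on all embryonic arrays, on replicate 2 of each ES-derived gate and on no induced array. The undetected ES-derived arrays were the dim ones. A second probe followed the first, with a correlation of 0.90 over 10 arrays that share their normalization. Embryonic cells were at least 4.04-fold above the bound in induced cells.

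Tceal6 and Tceal8, whose roles are little described, were detected in induced cells. Tceal6 levels were 7.89 and 6.57 in embryonic GFP-high, 7.86 and 7.59 in embryonic GFP-medium, 9.70 and 5.94 in ES-derived GFP-high, 7.47 and 5.83 in ES-derived GFP-medium, and 6.21 and 6.00 in induced cells. The 9.70 came from the dimmest array, where the deposited intensity was 15.1 and the lowest level among detected probes was 8.68. A second Tceal6 probe was detected on no array.

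Tceal8 levels were 7.96 and 8.55 in embryonic GFP-high, 8.43 and 7.57 in embryonic GFP-medium, 5.60 and 8.29 in ES-derived GFP-high, 7.31 and 7.95 in ES-derived GFP-medium, and 8.10 and 8.12 in induced cells. It was missed only on the dimmest array, and its induced levels lay inside the embryonic range. Tceal3 had 1 probe, which was detected on none of the 10 arrays, at levels of 4.25 to 5.50, and was not tested. In human the proteins TCEAL3, TCEAL5 and TCEAL6 are close copies of one another. Hybridization of a probe to more than 1 member was not tested.

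Bex1, an adaptor that in rat cells binds the p75 receptor and links it to the cell cycle, was the Bex gene not detected in induced cells. Its embryonic levels were 5.67 and 5.94 in the GFP-high gate and 6.34 and 6.14 in the GFP-medium gate. Its ES-derived levels were 4.22 and 6.47 in the GFP-high gate and 8.05 and 5.83 in the GFP-medium gate. The induced levels were 4.77 and 4.60. The highest and the lowest ES-derived values both came from dim arrays, and the induced arrays lay below all embryonic arrays. Both Bex1 probes gave this order, with a correlation of 0.99 over the 10 arrays. Embryonic cells were at least 1.77-fold above the bound in induced cells.

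Bex2, which in human cells binds the transcription cofactor LMO2, was detected everywhere. Its embryonic levels were 12.45 and 11.95 in the GFP-high gate and 12.49 and 11.92 in the GFP-medium gate. Its ES-derived levels were 11.93 and 12.05 in the GFP-high gate and 11.44 and 12.15 in the GFP-medium gate, and the induced levels were 12.51 and 12.39. All 10 values lay within the range of 11.44 to 12.51, and induced overlapped embryonic arrays. The other 2 probes of Bex2 did not follow this one: their correlations with it were 0.04 and 0.19 over 10 arrays, and 0.35 and 0.51 without the dimmest array. They ran from 6.96 to 10.94 and from 5.63 to 11.24, and both were highest on the dimmest array.

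Bex4, which in human cells associates with microtubules and the deacetylase SIRT2, was also detected on every array. Its embryonic levels were 10.36 and 10.59 in the GFP-high gate and 10.84 and 10.29 in the GFP-medium gate. Its ES-derived levels were 9.97 and 9.07 in the GFP-high gate and 10.49 and 9.34 in the GFP-medium gate, and the induced levels were 9.24 and 9.04. Both induced arrays lay below all embryonic arrays and within the ES-derived range or just under it. A second Bex4 probe correlated with the first at 0.45. On that probe the induced levels were 8.57 and 7.47 and overlapped the embryonic levels of 7.86 to 9.56.

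**Figure D2:**
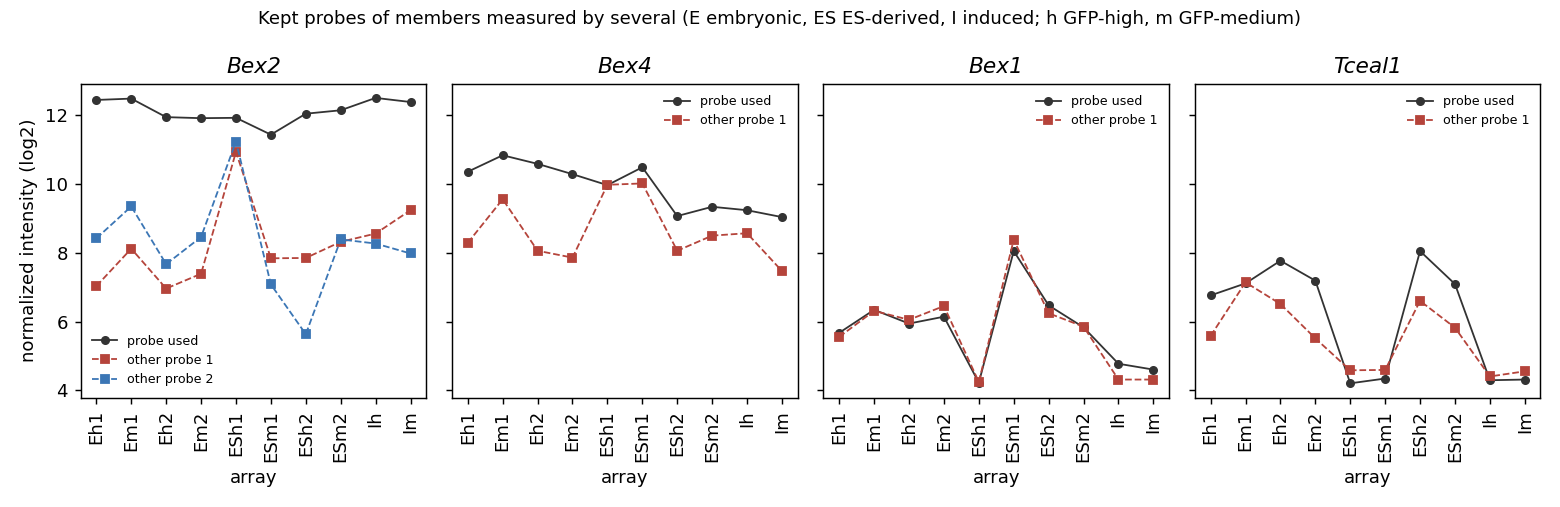
Normalized intensity (log2, vertical axis) of each kept probe of the 4 members measured by several, across the 10 arrays. The Bex1 probes run together (r = 0.99), while the 3 Bex2 probes lie closest together on the dimmest array, ES-derived GFP-high replicate 1 (11.93, 10.94 and 11.24), and farthest apart on ES-derived GFP-high replicate 2 (12.05, 7.85 and 5.63).

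The difference between ES-derived and embryonic cells was not used in choosing the members and was tested. None of the 7 measured members passed an adjusted p under 0.05, against 87 of 9679 features, 0.899%, by limma. At an unadjusted p under 0.05 there were also 0 members, against 11.1% of features. The difference was -0.53 ± 0.39 (SE) for Tceal5, with a 95% interval of -1.41 to 0.36 (adjusted p = 0.676), and -0.80 ± 0.38 for Bex4, with an interval of -1.66 to 0.06 (adjusted p = 0.487). It was -1.29 ± 0.83 for Tceal1, -0.84 ± 0.57 for Tceal8, -0.31 ± 0.32 for Bex2, -0.24 ± 0.80 for Tceal6 and 0.12 ± 0.63 for Bex1. Each value is of the brightest kept probe. The other 2 probes of Bex2 differed by 1.36 ± 0.69 and -0.39 ± 1.03. The arrays of both origins overlapped for all 7, while 7.3% of features did not overlap. The median over the 7 was -0.53, beside -0.13 over all features.

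Leaving out the 3 arrays of mean intensity under 100 left 2 ES-derived arrays, replicate 2 of each gate. The labels do not say whether these came from the same culture, so they may not be independent. On the arrays left, 3 members lay lower in ES-derived cells without overlap: Tceal5, Tceal6 and Bex4. Across all features 17.2% did so in that direction. Their differences were -1.06 ± 0.38, -1.47 ± 0.42 and -1.20 ± 0.28, with adjusted p of 0.169, 0.0985 and 0.0627, so none passed the threshold, while 4.23% of all features did. The lower level of Bex4 held for its brightest probe only. Its other kept probe read 8.06 and 8.5 on these ES-derived arrays and 8.29, 8.06 and 7.86 on the embryonic ones. Over all 10 arrays that probe differed by 0.70 ± 0.60, against -0.80 ± 0.38 for the brightest. In the same arrays Tceal1 stood at 0.38 ± 0.40, Tceal8 at 0.16 ± 0.32 and Bex2 at 0.02 ± 0.29, each on the other side of 0 from its value over all arrays.

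**Figure D3:**
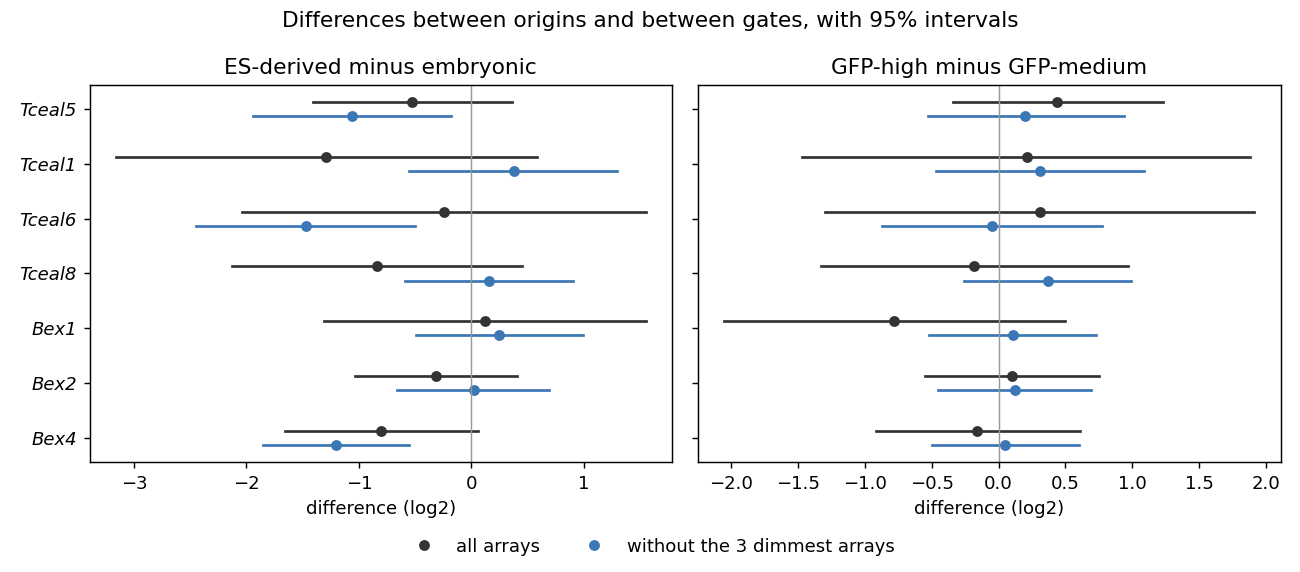
Differences (log2, horizontal axis) of the 7 measured members between ES-derived and embryonic cells and between gates, with 95% intervals from limma, over all 10 arrays and over the 7 arrays left without the 3 dimmest. Every interval over all arrays includes 0. Without the dim arrays those of Tceal5, Tceal6 and Bex4 lie below 0 for ES-derived against embryonic cells. In that setting 3 members and 2018 of 9679 features had an unadjusted p under 0.05 by limma. Each gene is shown by its brightest kept probe.

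Between the GFP-high and GFP-medium gates 0 of 9679 features passed, 0%, by limma, and 201 (2.08%) had an unadjusted p under 0.05, none of them a member. The differences ran from -0.78 ± 0.57 for Bex1 (95% interval -2.05 to 0.50) to 0.44 ± 0.35 for Tceal5 (interval -0.34 to 1.23). Bex2, by its brightest probe, was the most closely bounded, at 0.10 ± 0.29 with an interval of -0.55 to 0.75. The other 2 probes of Bex2 gave 0.08 ± 0.62 and -0.01 ± 0.92. Whether the gates differed more in one of these origins, ES-derived or embryonic, was also tested by limma, and 0 features (0%) passed, with 156 (1.61%) at an unadjusted p under 0.05 and no member among them. Its intervals were wide, for Tceal5 -1.60 to 2.60.

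As a description, the differences of induced from embryonic cells for the members detected in both were -1.38 ± 0.47 for Bex4, -1.37 ± 0.98 for Tceal6, -0.02 ± 0.70 for Tceal8 and 0.25 ± 0.39 for Bex2. Tceal5, Tceal1 and Bex1 were not detected on the induced arrays and have only the bounds of 37.2-fold, 4.04-fold and 1.77-fold given above, which without the 3 dim arrays were 43.7-fold, 4.13-fold and 1.65-fold. Both induced arrays lay below all embryonic arrays for 5 of the 7, as they did for 20% of features, and nothing is read from this count. The differences of induced from ES-derived cells were -1.13 ± 0.98 for Tceal6, -0.58 ± 0.47 for Bex4, 0.56 ± 0.39 for Bex2 and 0.82 ± 0.70 for Tceal8. Without the 3 dim arrays, which leaves 2 ES-derived arrays, they were 0.22 ± 0.45, -0.07 ± 0.30, 0.35 ± 0.32 and -0.01 ± 0.35, so those of Tceal6 and Tceal8 turned in sign. ES-derived cells were at least 25.8-fold above the bound for Tceal5, and without the dim arrays at least 20.5-fold. Without those arrays they were at least 5.18-fold above it for Tceal1 and 1.94-fold for Bex1. Over all arrays the values were 1.65-fold for Tceal1 and 1.93-fold for Bex1, which are not strict bounds. Tceal1 was detected on 2 and Bex1 on 3 of the 4 ES-derived arrays, and the means include the others. On the other 2 probes of Bex2, induced cells differed from embryonic cells by 1.53 ± 0.85 and -0.35 ± 1.26. Against ES-derived cells these probes gave 0.16 ± 0.85 and 0.04 ± 1.26. Both comparisons share the induced arrays.

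Of 8 further Tceal and Bex relatives listed, 3 were measured, and none passed in the comparison of ES-derived with embryonic cells. Bex3, a p75 receptor partner linked to cell death, differed by -0.73 ± 0.36, Tceal9 by -0.32 ± 0.35 and Tceanc2 by 0.30 ± 0.73. Against embryonic cells the induced values were -0.22 ± 0.44, -0.28 ± 0.43 and -0.38 ± 0.89. Bex3 and Tceal9 lie in the same 643 kb of the X chromosome as Tceal5 and were detected on all 10 arrays.

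The Armcx and Gprasp genes, which encode armadillo-repeat proteins of mitochondria and receptor-sorting proteins, were measured for 8 of 10. None passed between ES-derived and embryonic cells, with a median of -0.33. Between induced and embryonic cells the median was -1.12, also with the undetected Armcx6 at its bound, beside -0.02 over all features, with Gprasp1 at -2.30 ± 0.82, Armcx1 at -1.76 ± 0.54 and Gprasp3 at 0.05 ± 0.44. The 290 other X-linked features had medians of -0.23 and -0.08 in these comparisons. Xist, the X inactivation transcript, was detected on all 4 embryonic arrays at 5.80 to 7.08 and on no other array. The Y-linked Eif2s3y was detected on all embryonic arrays at 7.16 to 8.01 and on the induced arrays at 9.11 and 8.95, and on no ES-derived array. The other Y-linked genes measured differed from it. Uty was detected on 3 embryonic and 3 ES-derived arrays and on no induced array, and Kdm5d on 2 embryonic arrays alone. The part of the X chromosome's dosage in the members' values was not tested.

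Of 15 transcription elongation factors 11 were measured, and none passed between ES-derived and embryonic cells (median 0.05). Tcea2, a TFIIS paralogue, differed by -1.43 ± 0.63 and Supt6, a histone chaperone of elongation, by 1.20 ± 0.29. These were the lowest and the highest of the 11. Without the 3 dim arrays Supt6 passed as higher. Of 21 genes of p75 receptor signalling and Bex partners 14 were measured and none passed (median -0.18). The values were -2.13 ± 0.73 for Ngfr, the p75 receptor itself, -2.81 ± 0.59 for Ntrk3, the receptor of neurotrophin-3, and -1.64 ± 0.34 for Ntrk2, the BDNF receptor. That of Ntrk3 was the lowest of the 14, while 4 of them lay above 0, up to 0.66. Ntrk3 passed as lower without the 3 dim arrays. Against embryonic cells, the induced values were -1.93 ± 0.89 for Ngfr, -2.08 ± 0.72 for Ntrk3, 1.43 ± 0.78 for the Bex2 partner Lmo2 and -0.12 ± 0.43 for Maged1, a p75 receptor interactor.

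**Figure D4:**
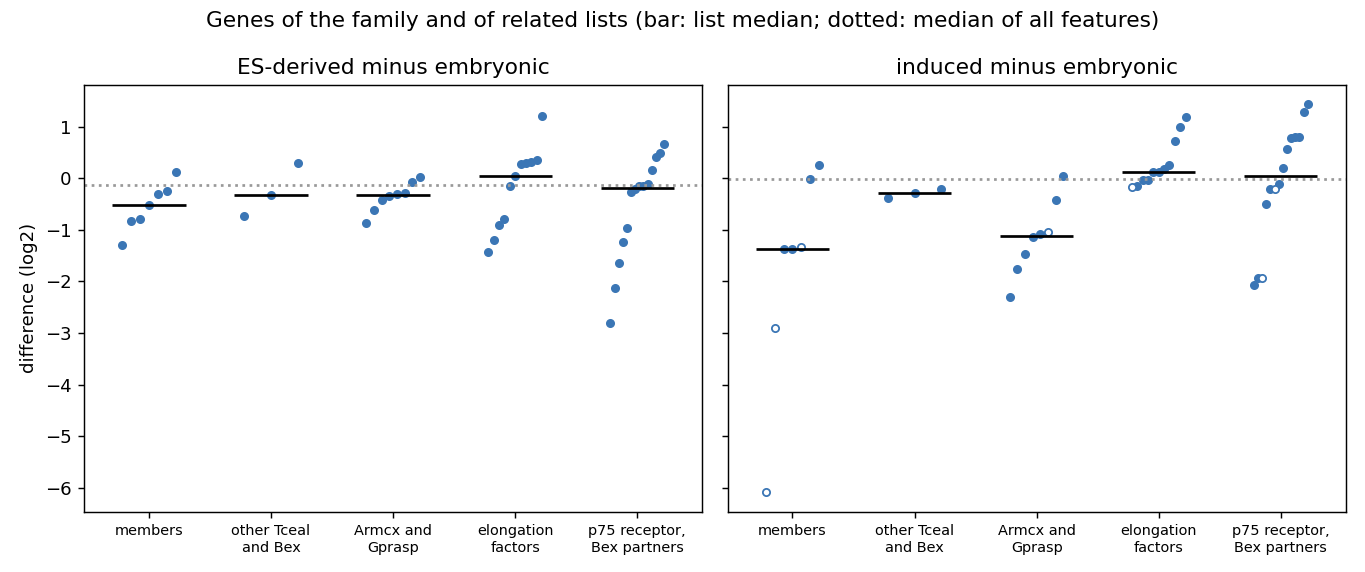
Differences (log2, vertical axis) of the measured genes of 5 lists, 1 point per gene, for ES-derived and for induced against embryonic cells. Bars are list medians and the dotted line is the median of all 9679 features. Open points are fitted values of genes not detected on any induced array, which have only a bound there, Tceal5, Tceal1 and Bex1 among them.

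Over the 10 arrays, the genes whose levels followed Tceal5 most closely were Fblim1 (Pearson r = 0.948), a filamin-binding adaptor, Ndn (0.939), the imprinted MAGE protein necdin, Mdk (0.930), the growth factor midkine, Prmt8 (0.925), a neural arginine methyltransferase, and Bok (0.919), a BCL2 relative. The arrays share their normalization and fall into 3 origins, so the points are not independent. Ndn stood at 12.92 ± 0.27 (SD, n = 4) in embryonic, 12.29 ± 0.69 (n = 4) in ES-derived and 9.24 ± 0.75 (n = 2) in induced cells, and stayed detected there. Fblim1 stood at 8.26 ± 0.35, 8.58 ± 0.56 and 4.24 ± 0.02, and was not detected in induced cells. Among the members, Tceal5 correlated at 0.64 with Bex4, 0.56 with Tceal1 and -0.49 with Bex2. Without the dimmest array these were 0.65, 0.73 and -0.46. The gene most like each other Tceal member was Gucy1b1 for Tceal1 (0.963), Bcas1 for Tceal6 (0.974) and Slc35a1 for Tceal8 (0.973). For the Bex members it was Xlr4c for Bex1 (0.972), Chkb for Bex2 (0.912) and Pdyn for Bex4 (0.939). Without the dimmest array Slc35a1 correlated with Tceal8 at 0.85. The other genes named as most like a member then lay at 0.929 to 0.977.

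**Figure D5:**
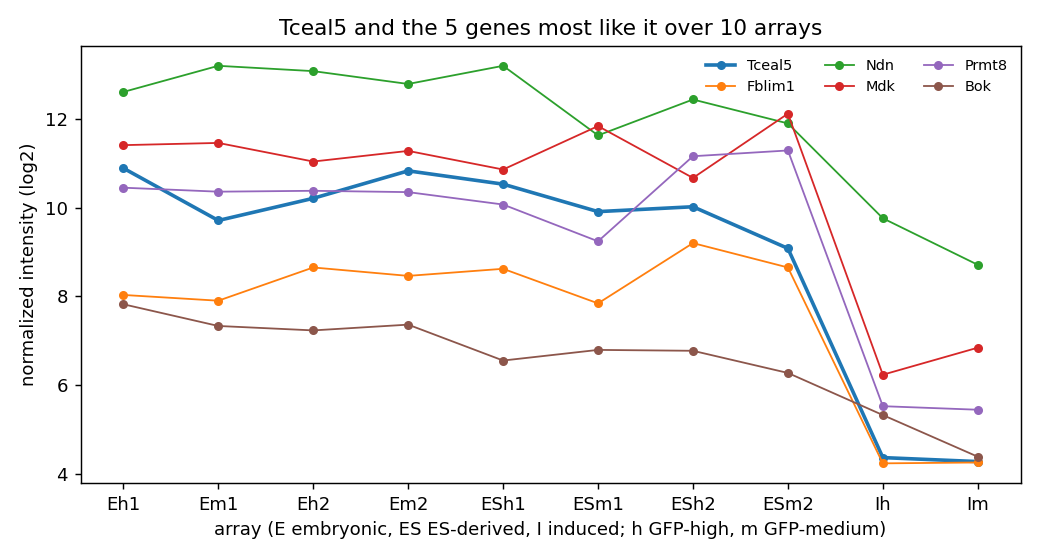
Normalized intensity (log2, vertical axis) of Tceal5 and the 5 genes most like it across the 10 arrays. The 5 genes were picked for following Tceal5, so their low induced values restate that choice. Ndn, Mdk and Prmt8 were still detected on both induced arrays.

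The 6 members with the motif pair spaced by 7 bases did not share a pattern of levels. Tceal5 and Bex1 were not detected in induced cells, Tceal6, Tceal8 and Bex4 were, and Tceal3 was detected nowhere. Of all 17 genes with that pair, 12 were measured, with a median of -0.42 for ES-derived and -1.15 for induced against embryonic cells. With the 3 genes not detected in induced cells set at their bounds, the latter was -0.66. The 12 include the members Tceal5, Tceal6, Tceal8, Bex1 and Bex4, so the induced median partly restates how the family was chosen.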

How the data were processed

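The authors deposited 1 linear intensity per probe and array on Illumina MouseRef-8 arrays, exported from BeadStudio per the submitters' processing notes (version not given in the sources used here), with a detection p-value per probe, per the file headers. RNA was Trizol-extracted and amplified in a double round, per the labels. Values below 0 show that background had been subtracted before deposit. A table of intensity normalized by the authors, by a method not given, served as an alternative. From the deposited intensity, log2 values were computed with normexp (limma 3.58.1, R 4.3.3, detection p-values, offset 16) and quantile normalized. A probe was kept where 2 or more arrays had a detection p under 0.01 (11915 probes), and the brightest per gene was used. Symbols came from the platform annotation, in which 23978 probes had 1 and 1719 none. Limma fitted origin and gate additively over all 10 arrays, two-sided, with 6 residual degrees of freedom and Benjamini-Hochberg adjustment over 9679 features at 0.05. The gate difference between origins was fitted on group means with 4.

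The members, the 14 gene lists and the tests were chosen with earlier results of these data known. Named genes were every member, list genes that passed and up to 4 others of a list, and, by Pearson r over 10 arrays, 5 genes most like Tceal5 and 1 most like each other member. Promoter windows are RefSeq's, build GRCm38.p6. The fit was tested on simulated data for ES-derived against embryonic cells only. Each simulated feature had the same spread on every array, so arrays of unlike quality were not covered. Alternatives were no background correction, an offset of 50, median scaling over all probes and over kept probes, the authors' values, no filter, the mean of a gene's probes, array weights, a replicate block, and leaving out each array or the 3 dimmest.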

Additional observations from a re-analysis of the deposited data

How the results depend on the processing

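No tested difference of a member passed the threshold under any alternative run, and 368 of 420 such values kept their direction. Features called for ES-derived against embryonic, induced against embryonic and induced against ES-derived cells numbered 87, 123 and 78. They became 6, 5 and 4 with median scaling over all probes, which moved the median of all features to -0.58, -0.44 and 0.03. Median scaling over the kept probes, an alternative chosen after the counts from all probes had been seen, gave 40, 27 and 6, with medians of 0.13, 0.31 and 0.08. Array weights gave 550, 3135 and 1581, and leaving out the 3 dimmest arrays gave 409, 1682 and 1099. Leaving out each array in turn gave 35 to 270, 10 to 646 and 1 to 399. The highest of each came without ES-derived GFP-high replicate 1. Without embryonic GFP-high replicate 1 the counts were 35, 48 and 46, without embryonic GFP-high replicate 2 41, 50 and 42, and without embryonic GFP-medium replicate 2 35, 43 and 38. Without the induced GFP-high array they were 55, 10 and 1, without the induced GFP-medium array 55, 13 and 10, and without ES-derived GFP-medium replicate 2 the last was 50. The gate difference between origins had 0 calls, and 0 to 1406 on leaving out single arrays, the 1406 without ES-derived GFP-high replicate 2, which leaves the dimmest array alone in its group and assumes that it varies like the others. Deviations of same-numbered arrays correlated at -0.09 to 0.20. With 2 arrays per group, and arrays of unlike brightness, this cannot settle whether they were paired, and the labels do not say. The replicate block gave 79, 117, 67, 0 and 0 calls.

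Directions of uncalled members turned as follows, with the cause not tested. For ES-derived against embryonic cells, leaving out the 3 dimmest arrays gave 0.38 for Tceal1, 0.16 for Tceal8 and 0.02 for Bex2. Array weights gave 0.03 for Tceal8, the mean of the probes 0.22 for Bex2, median scaling -0.16 and the authors' values -0.25 for Bex1. Leaving out single arrays spanned -1.13 to 0.31 for Tceal6 and -0.46 to 0.71 for Bex1. For the gates, the 3 dimmest arrays left out gave -0.05 for Tceal6, 0.37 for Tceal8, 0.11 for Bex1 and 0.05 for Bex4, and array weights 0.23 for Tceal8 and 0.06 for Bex4. Median scaling gave 0.45 for Tceal8 and -0.39 for Bex2, and over the kept probes -0.11 for Tceal6, 0.29 for Tceal8 and -0.55 for Bex2. Single arrays left out spanned -0.42 to 0.77 for Tceal1, -0.40 to 0.75 for Tceal6, -0.51 to 0.32 for Tceal8, -0.03 to 0.20 for Bex2 and -0.30 to 0.06 for Bex4. For the gate difference between origins, median scaling gave -0.96 for Tceal1, -2.79 for Tceal5, -1.73 for Tceal6 and -3.00 for Bex2, and over the kept probes -1.07 for Tceal5, -0.01 for Tceal6, 0.04 for Bex1 and -1.29 for Bex2. The 3 dimmest arrays left out gave 0.97 for Bex1 and -0.38 for Bex2. Single arrays left out spanned -1.63 to 2.22 for Tceal1, -0.06 to 1.06 for Tceal5, -0.22 to 3.54 for Tceal6, -2.28 to 0.41 for Tceal8, -0.16 to 0.55 for Bex2 and -0.89 to 0.26 for Bex4.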
